A study of Mus musculus with 8 samples.

Results

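Arginine metabolism is represented here by 6 genes, Slc7a2, Arg1, Arg2, Nos2, Ass1 and Odc1, out of 32502 genes named in the deposited expression tables. They were listed by name for their place in the pathway, and their levels were followed across all cell types, genotypes and tumour stages of a mouse glioma model. The study used Drop-seq, a droplet method that counts the 3′ ends of single-cell transcripts with unique molecular identifiers (UMIs), on brains of C57BL/6 mice (C57BL/6N in the study's methods) labelled Irg1/Acod1 +/+ (WT) or -/- (KO). Tumour-bearing mice of both genotypes carried GL261 cells, a mouse glioma line implanted into the brain (the right striatum by the labels, the frontal cortex by the methods), and were sampled at an early, an intermediate or a late volume. Naïve mice of both genotypes carried no tumour. Each of the 8 combinations of genotype and condition is 1 library. The titles of the naïve libraries name 2 mice each, and those of the tumour-bearing libraries 1 mouse.

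Several features of the design limit what the groups can tell. The tumour cells are the same WT line in both hosts, so genotype refers to the host cells. The KO allele is an insertion cassette in Acod1, the gene of the enzyme that makes itaconate. According to the study's methods, the early and the intermediate pair of libraries differ in sex as well as in genotype, so these cannot be told apart there, while both late mice were male. Acod1 UMIs were counted in macrophages of the libraries labelled KO (27, 5 and 29 at the early, intermediate and late stage) as well as in those labelled WT (82, 3 and 1). Counting 3′ ends does not show whether a transcript carries the cassette, so these counts do not check the genotype, and WT and KO below mean the libraries labelled so.

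L-Arginine stands at a branch point of macrophage metabolism. Slc7a2 carries arginine into the cell across the plasma membrane. Inside the cell, arginase 1 (Arg1, cytosolic) and arginase 2 (Arg2, mitochondrial) split arginine into urea and ornithine, whereas inducible nitric oxide synthase (Nos2) converts it into nitric oxide and citrulline. Argininosuccinate synthase (Ass1) takes citrulline back towards arginine, and ornithine decarboxylase (Odc1) turns ornithine into putrescine, the first step of polyamine synthesis. Arg1 is a classical marker of alternatively activated macrophages and Nos2 of classically activated ones. Microglia are the resident macrophages of the brain. The glioma-associated myeloid cells are called TAM I where microglia-like and TAM II where macrophage-like.

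In GRCm38 coordinates (GENCODE M21), all 6 are protein-coding genes. Slc7a2 lies on chromosome 8 from 40862396 to 40922308 on the plus strand. Arg1 lies on chromosome 10 from 24915221 to 24927484 on the minus strand. Arg2 lies on chromosome 12 from 79130777 to 79156301, Nos2 on chromosome 11 from 78920787 to 78960254, Ass1 on chromosome 2 from 31470207 to 31520672 and Odc1 on chromosome 12 from 17544794 to 17551505, all on the plus strand. Arg2 overlaps Vti1b and Gm48780 on the opposite strand, Slc7a2 overlaps Gm26584 on the opposite strand and Odc1 holds the small gene Gm22748 on its own strand.

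Promoters are shown for Ass1, found in several myeloid populations and further cell types, and Odc1, expressed in most classes, the members for which a promoter sequence was available. The RefSeq promoter table (GRCm38.p6) held 300 bases around the RefSeq start of these 2 of the 6 genes, both on the plus strand, Ass1 at chr2:31470020-31470319 and Odc1 at chr12:17544623-17544922. Capitals mark matches, on either strand, to the E-box CACGTG and the GC box GGGCGG.
Ass1: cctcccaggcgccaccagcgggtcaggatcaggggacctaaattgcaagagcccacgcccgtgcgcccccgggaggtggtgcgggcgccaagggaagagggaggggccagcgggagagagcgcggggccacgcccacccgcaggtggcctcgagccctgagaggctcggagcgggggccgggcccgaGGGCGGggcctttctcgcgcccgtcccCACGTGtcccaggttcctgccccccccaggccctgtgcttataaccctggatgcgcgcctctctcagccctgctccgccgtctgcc
Odc1: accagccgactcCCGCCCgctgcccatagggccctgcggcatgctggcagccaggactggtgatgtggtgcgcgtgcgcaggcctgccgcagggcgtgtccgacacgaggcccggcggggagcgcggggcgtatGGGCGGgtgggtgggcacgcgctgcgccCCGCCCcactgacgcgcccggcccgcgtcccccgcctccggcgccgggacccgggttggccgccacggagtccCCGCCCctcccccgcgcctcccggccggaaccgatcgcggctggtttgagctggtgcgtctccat
The Ass1 window held 1 E-box, starting 36 bases before the RefSeq start, and 1 GC box, 63 bases before it. The Odc1 window held GC boxes at 238, 116, 88 and 15 bases before the start and no E-box. Among 32851 promoters of the same length, 7.15% held an E-box and 35.7% a GC box. Neither window held a TATA box (TATAAA), a STAT motif (TTCNNNGAA) or a C/EBP motif (TTGCGCAA), which were present in 13.6%, 8.30% and 0.183% of all promoters. The motifs do not overlap each other in these windows. Both windows were rich in G and C, with 74.0% for Ass1 and 78% for Odc1 against a median of 52.7%.

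After the study's filters, 5698 cells remained, between 454 and 1000 per library, with a median of 2607.5 to 5642.5 UMIs per cell. The tables summed to between 2885345 and 9950713 UMIs per library. Cells were clustered without the 6 genes and 42 further genes of the same pathways, and clusters were named from marker lists. TAM I and TAM II here are therefore not exactly the cells that the study gave these names. Its TAM II in KO mice held a state with Ccl17, Ccl22, Ccr7 and Il12b, genes that here led a dendritic-like cluster kept apart. Macrophage-like cells (TAM II) numbered 397 in the tumour-bearing libraries and 2 in the naïve ones, and microglia-like cells 175 (TAM I) and 200 (naïve microglia). All 8 macrophage markers were detected in every TAM II sum, at a summed level of 17333 to 28641 CPM (UMIs per 1000000 UMIs of the summed cells). TAM II of the libraries WT intermediate and WT late comprised 16 and 21 cells against 72 to 108 in the other 4, so their values are less precise. The naïve libraries held 9 cells of the tumour class, and 2 barcodes were shared between libraries among the kept cells (9 cells). A myeloid cluster of 53 cells led by Il1b, Ccl17 and Plbd1 was not assigned to a cell type by the marker lists and remained unnamed.

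Arg1 was a transcript of TAM II. Of 5993 Arg1 UMIs in all kept cells, 91.0% lay in TAM II, 7.94% in tumour cells and 0.884% in the unnamed myeloid cluster. The mean level in TAM II was 2505 ± 1734 CPM (SD, n = 6 libraries), with 206 of 397 cells positive (51.9%, exact binomial 95% interval 46.9 to 56.9). TAM I held 1 Arg1 UMI in 175 cells, and naïve microglia held 0 in 200 cells, which allows up to 6.12 CPM at the limit of 3 UMIs and a share of up to 1.5% of cells with a UMI, which does not limit the share of cells that express the gene. The next level after TAM II was that of the unnamed cluster (337 ± 754 CPM, n = 5), where all 53 UMIs lay in 3 cells of the library KO intermediate, followed by OPCs (26.0 ± 63.6 CPM, n = 6), where 2 UMIs lay in 1 cell, and tumour cells (19.8 ± 40.2 CPM, n = 6). The ranges of these 3 overlapped. Oligodendrocytes, which are not known to express Arg1, held a UMI in 5 of 225 cells (2.22%) in the tumour-bearing libraries and 0 in 143 cells of naïve brains. Over naïve and tumour-bearing libraries together, oligodendrocytes had a median of 2827.5 UMIs per cell against 3380 in macrophage-like cells. Dendritic-like cells held no Arg1 UMI in 24 cells.

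Arg2 and Nos2 were rare and also lay mostly in TAM II. Arg2 had 36 UMIs in all kept cells, of which 31 lay in TAM II (14.8 ± 9.74 CPM, n = 6), 3 in the unnamed cluster and 1 each in a tumour cell and a neuron-like cell. Nos2 had 143 UMIs, of which 73.4% lay in TAM II (43.2 ± 28.5 CPM, n = 6, 43 of 397 cells), 12.6% in endothelial cells and 5.59% each in tumour cells and in the unnamed cluster, where 1 cell held all 8. Neither TAM I nor naïve microglia held an Arg2 or a Nos2 UMI, which allows up to 4.5 CPM in TAM I and 6.12 CPM in naïve microglia. The unnamed cluster's mean Nos2 level (46.4 ± 104 CPM, n = 5) rests on that 1 cell.

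The other 3 genes were shared with further cell types. Slc7a2 was highest in astrocytes (166 ± 68.0 CPM in 5 tumour-bearing libraries and 145 ± 17.4 in the 2 naïve ones) and TAM II (108 ± 75.6, n = 6), which did not differ beyond their spread. It was next found in ciliated ependymal-like cells (97.8 in 1 tumour-bearing library, 7 UMIs in the class, and 59.5 ± 57.8 in the 2 naïve ones), naïve mural cells and fibroblasts (94.8 ± 41.1, n = 2, 5 UMIs) and the unnamed cluster (64.0 ± 90.7, n = 5), whose ranges overlapped, and it was near 0 in microglia-like cells (1.84 ± 4.52 in TAM I and 4.24 ± 1.16 in naïve microglia), lymphocytes and tumour cells. Astrocytes held 25.0% of its 480 UMIs and TAM II 56.5%. The share of Slc7a2-positive cells was 27.8% of 72 astrocytes in tumour-bearing and 27.4% of 215 in naïve brains, against 0.889% of 225 oligodendrocytes, so a difference between naïve and tumour-bearing astrocytes was not detectable at this depth.

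Ass1 was a gene of several myeloid populations. It was highest in the unnamed cluster (276 ± 119.5 CPM, n = 5), followed by dendritic-like cells (153 ± 59.1, n = 2, 7 UMIs) and TAM II (111 ± 59.8, n = 6, 138 of 397 cells). Lymphocytes (53.8 ± 58.7, n = 5) overlapped with TAM II. The library WT early held 0 Ass1 UMIs in 69 lymphocytes, which allows up to 11.6 CPM, whereas the libraries KO early, KO intermediate and KO late held 12, 25 and 5 (116, 116 and 37.1 CPM). Lymphocytes of the libraries WT intermediate and WT late were too few to compare (6 and 4 cells, 0 UMIs). The WT side thus rests on 1 library, whose mouse also differed in sex from that of KO early. A difference between the genotypes in lymphocytes was not tested. Astrocytes of naïve brains (52.8 ± 14.7, n = 2) and ciliated ependymal-like cells also held the transcript. Naïve microglia held 0 Ass1 UMIs in 200 cells, which allows up to 6.12 CPM. TAM I held 25 in 12 of 175 cells, 22 of them in the library WT early (81.2 CPM, exact Poisson 95% interval 50.9 to 123), and the other 5 libraries held 0 or 1.

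Odc1 was expressed in most classes. Because tumour cells were the most numerous cells, 74.6% of its 1945 UMIs lay in them, but in CPM the tumour cells (54.6 ± 29.1, n = 6) stayed below lymphocytes (154 ± 77.8, n = 5) and ciliated ependymal-like cells of naïve brains (187 ± 18.8, n = 2). TAM II (63.4 ± 25.1, n = 6) did not differ from tumour cells beyond the spread. Microglia-like cells had 24.4 ± 22.7 in TAM I and 24.6 ± 15.4 in naïve brains. Endothelial cells had 45.5 ± 9.03 CPM in 5 tumour-bearing libraries (38.1 to 56.8) and 9.10 ± 8.32 in the 2 naïve ones (3.22 and 15), with 26 and 6 UMIs behind them. The ranges did not overlap, and 6.69% of 10677 genes with at least 10 UMIs in endothelial cells had every tumour-bearing sum above every naïve one. In oligodendrocytes it was 9.63 ± 9.73 (n = 6), and neuron-like cells held none in 38 cells.

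**Figure D1:**
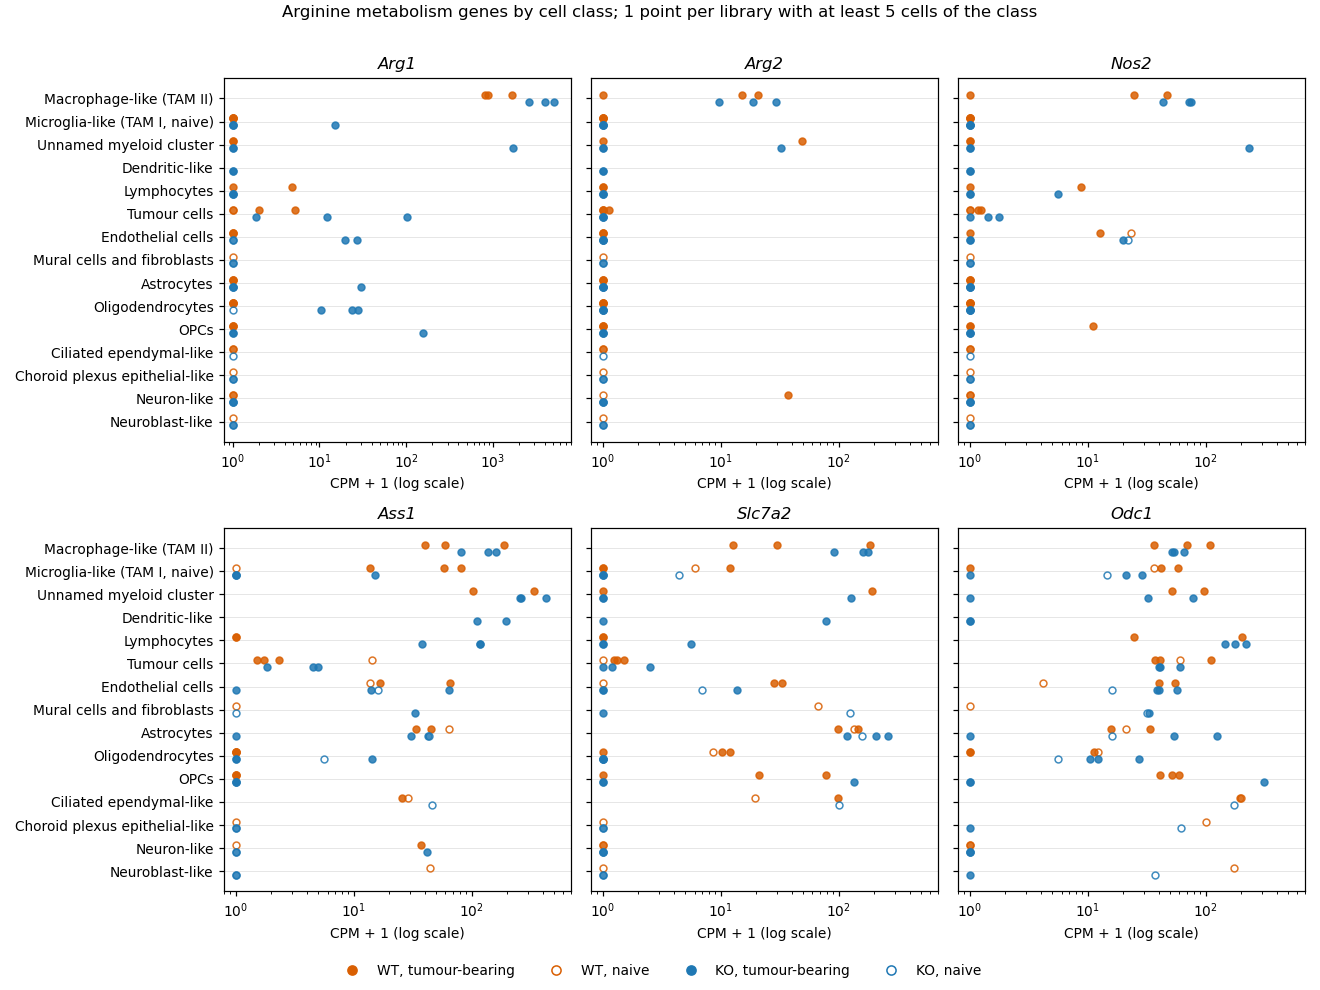
Level of the 6 genes (x axis, CPM plus 1, log scale) in each cell class (y axis), with 1 point per library that held at least 5 cells of the class, filled for tumour-bearing and open for naïve brains, orange for WT and blue for KO. Arg1 lies at 800.5 to 5085 CPM in TAM II of the 6 tumour-bearing libraries and at or near 0 (drawn at 1) in microglia-like cells, while Slc7a2 is shared by TAM II and astrocytes and Odc1 is spread over most classes. Points at 0 overlap.

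The first comparison was TAM II against TAM I of the same 6 tumour-bearing libraries, which asks how the macrophage-like and the microglia-like subset differ. Arg1 was higher by 9.98 on the log2 scale (SE 0.37, adjusted p = 4.79e-11, edgeR's quasi-likelihood test with the library as a block) and was higher in 6 of 6 libraries. It was the only one of the 6 genes to pass the filter on low counts, and it passed through TAM II, where it is high, so that its being called higher there followed in part from the filter. Of 2265 genes tested, 30.9% were called and 15.1% were called higher in TAM II. Since TAM I held 1 Arg1 UMI, the fitted value depends on the prior count, and the pooled levels were 2803 CPM (exact Poisson 95% interval 2729 to 2878) and 1.5 CPM (0.0380 to 8.37). Without the filter, all 6 genes were higher in TAM II, with log2 differences of 10.23 for Arg1, 6.38 for Nos2, 4.99 for Slc7a2, 4.98 for Arg2, 2.30 for Ass1 and 1.76 for Odc1 (adjusted p of at most 0.00314, edgeR), against a background of 4.21% of 19934 genes called higher. Most of these genes were too low to pass the filter, so that share is a low background for the members. The p-values of the 2 fits are also not on one scale. For Arg1 the SE was 0.41 without the filter, larger than with it, but the adjusted p was 4.26e-132 (edgeR). For Arg2 and Nos2, at 0 UMIs in TAM I, the log2 differences are no bounds.

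TAM I was next compared with naïve microglia, where 16.7% of 3131 genes were called. That count rests on the 2 naïve libraries, with 523 genes called in all, 101 without the library WT naïve and 66 without the library KO naïve. None of the 6 genes had enough counts to be tested. The transcripts that could be followed in both were those of Odc1 (17 and 11 UMIs, 25.5 and 22.5 CPM pooled) and Slc7a2 (3 and 2 UMIs), and neither differed beyond its counting interval. Ass1 was at 25 and 0 UMIs as given above, or 37.5 CPM pooled (24.3 to 55.4) against an upper limit of 6.12 CPM, a difference that rests on the library WT early.

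Within TAM II, Arg1 had the higher level in the KO library at every stage. The libraries WT early, WT intermediate and WT late held 497, 68 and 170 Arg1 UMIs, which are 888 CPM (exact Poisson 95% interval 811 to 969), 800.5 CPM (622 to 1015) and 1662 CPM (1421 to 1931). The libraries KO early, KO intermediate and KO late held 1980, 925 and 1811 UMIs, which are 5085 CPM (4864 to 5314), 2630.3 CPM (2463 to 2805) and 3964 CPM (3784 to 4151). All 3 KO values lay above all 3 WT values. In TAM II, 4.52% of the 5335 genes tested had every KO sum above every WT sum. The ratio of the KO to the WT library was 5.73 at the early stage (exact 95% interval for counting error 5.19 to 6.33), 3.29 at the intermediate stage (2.57 to 4.27) and 2.39 at the late stage (2.04 to 2.81). All these intervals take UMIs as independent and leave out the spread between cells. They are too narrow here, where a few cells held much of the Arg1.

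Across the 3 stages, Arg1 averaged 1117 ± 474 CPM in WT and 3893 ± 1229 CPM in KO (SD, n = 3 libraries each). edgeR's quasi-likelihood test with the stage as a block gave a log2 difference of 1.87 (SE 0.30, unadjusted p = 2.85e-05), but the adjusted p of 0.0544 did not pass the threshold of 0.05. No gene passed it in this comparison (0% of 5335 genes, 4.59% at an unadjusted p under 0.05), whereas DESeq2 called 10 genes (0.187%), Arg1 among them with an adjusted p of 0.00101. An exact permutation test over the 6 libraries gave p = 0.10 (two-sided), the smallest value that 3 against 3 allows. Over 22 alternatives the log2 difference was between 1.55 and 2.14, and the adjusted p passed in 9 of them. It passed without the library WT early (adjusted p = 4.77e-05, 1.63% of genes called) and without the library KO early (0.00105, 1.34% called), and was highest, at 0.597, without both late libraries. With 1 early library left out, the stage block takes up the other. These early leave-outs are therefore the same contrast of the intermediate and late libraries, each with 1 residual degree of freedom.

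Arg1 was also compared cell by cell. The share of Arg1-positive TAM II was 45.1%, 43.8% and 33.3% in the libraries WT early, WT intermediate and WT late, and 61.1%, 39.7% and 65.7% in the libraries KO early, KO intermediate and KO late. The intermediate values were thus in the opposite order, and their intervals overlapped widely (19.8 to 70.1% for WT and 28.8 to 51.5% for KO). After thinning every cell to 1500 UMIs, which left out no TAM II cell, the expected shares were 35.7%, 30.1% and 31.7% in WT and 56.4%, 36.7% and 58.9% in KO, without overlap (exact permutation p = 0.10, two-sided, the smallest possible), as in 5.49% of the genes tested. Among positive cells, the median was 5.5, 5 and 25 UMIs in the WT libraries and 26, 17 and 8 in the KO libraries. The WT late median rests on 7 positive cells. The highest Arg1 count in a single cell was 61, 34 and 45 UMIs in WT and 182, 121 and 259 in KO. In each library a few cells dominated. Between 1 and 8 cells held 50% of the Arg1 UMIs, for example 7 of 108 in the library KO late.

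**Figure D2:**
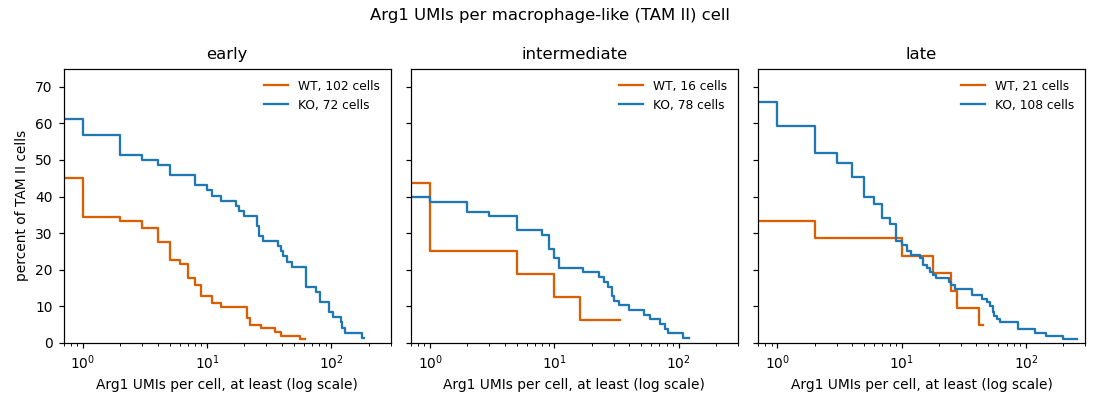
Percent of TAM II cells (y axis) with at least the number of Arg1 UMIs on the x axis (log scale), per tumour stage, for the WT (orange) and the KO library (blue), with the number of cells in the legend. The KO curve lies above the WT curve throughout at the early stage, where 43.1% of KO and 12.7% of WT cells had 10 or more Arg1 UMIs. At the intermediate stage the shares with 10 or more were 25.6% and 18.8%, and at the late stage 27.8% and 28.6%.

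Other properties of the TAM II sums also differed between libraries, some of them with overlap between the genotypes. The WT intermediate and WT late sums held 84952 and 102308 UMIs, against 351676 to 559865 in the others. Fewer markers can therefore be detected in them. The summed level of 8 dendritic cell markers was 0 to 41.1 CPM in WT (0 to 3 of 8 detected) and 79.6 to 269.7 CPM in KO (5 of 8 detected in each), and that of 8 lymphocyte markers 0 to 5.36 CPM in WT and 17.1 to 98.5 CPM in KO. Arg1 itself was absent from 24 dendritic-like cells and present with 1 UMI in 187 lymphocytes of these brains. The microglia markers summed to 1188 to 3626 CPM in WT and 1063 to 1598 CPM in KO, and the tumour cell markers to 766 to 1377 CPM and 676 to 839.9 CPM. The 6 neutrophil markers summed to 11.8 to 55.4 CPM in WT and 30.8 to 56.9 CPM in KO. Of them, S100a9, Retnlg and Cxcr2 were at 0 in all 6 sums, Csf3r was detected in all 6, and S100a8 and Ly6g in some. The oligodendrocyte markers summed to 1517 CPM in the library KO late and to 171 to 297 CPM in the other 5, and without the library KO late Arg1 stood at 2.14 (adjusted p = 0.190, edgeR). When the 94 TAM II cells with a UMI of the tumour collagens Col9a1, Col3a1 or Col11a1 were left out, Arg1 stood at 1.82 (adjusted p = 0.0334, edgeR, 0.172% of genes called), and without the 69 TAM II cells of over 8000 UMIs at 1.65 (adjusted p = 0.432, edgeR). The part of the dendritic cell, lymphocyte and oligodendrocyte transcripts in the result was not tested.

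Nos2, the enzyme that competes with arginase for arginine, was at 46.4, 23.5 and 0 CPM in TAM II of the libraries WT early, WT intermediate and WT late (26, 2 and 0 UMIs), and at 71.9, 42.7 and 74.4 CPM in KO (28, 15 and 34 UMIs). A count of 0 in the library WT late allows up to 29.3 CPM, against which the KO value at the late stage was at least 2.54-fold higher, and the exact 95% interval of the ratio, which includes the counting error of the KO library, starts at 1.95. The groups overlapped, and the log2 difference of 1.25 (SE 0.61, adjusted p = 0.999, edgeR) was not called. Some of these values rest on single cells, since 1 cell held 14 of the 26 UMIs of the library WT early and 1 cell 12 of the 34 of the library KO late. The share of Nos2-positive cells was 8.82%, 6.25% and 0% in WT (9 of 102, 1 of 16 and 0 of 21 cells) and 18.1%, 10.3% and 11.1% in KO (13 of 72, 8 of 78 and 12 of 108), without overlap of the 3 and 3 values (exact permutation p = 0.10, two-sided, the smallest possible). With 16 and 21 cells, the WT intermediate and WT late shares are imprecise, so this order is uncertain. Among the genes tested, 2.21% had every KO share above every WT share.

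The transporter Slc7a2 was at 182, 11.8 and 29.3 CPM in WT (102, 1 and 3 UMIs at the early, intermediate and late stage) and at 159, 176 and 89.8 CPM in KO (62, 62 and 41 UMIs). The early libraries did not differ beyond counting error (ratio of KO to WT 0.874, 0.627 to 1.21), whereas the intermediate KO library was higher by a ratio of 15 (2.59 to 601), which rests on 1 WT UMI, and the late one by 3.06 (0.977 to 15.5). Over all stages the log2 difference was 0.86 (SE 0.51, adjusted p = 0.999, edgeR) and was not called, while leaving out the library WT early gave 2.62 (adjusted p = 0.00964, edgeR), leaving out the library KO early 2.64 (adjusted p = 0.0295) and leaving out both 2.61 (adjusted p = 0.0119). In these 3 fits 1.63%, 1.34% and 2.28% of all genes were called. With 1 early library left out, the stage block takes up the other. The 3 fits are therefore the same contrast of the intermediate and late libraries and not separate results. Each had 1 residual degree of freedom, and the WT side held 1 and 3 UMIs.

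Ass1, which regenerates arginine from citrulline, showed a similar order of libraries. It was at 189, 58.9 and 39.1 CPM in WT (106, 5 and 4 UMIs) and at 136, 159 and 81.0 CPM in KO (53, 56 and 37 UMIs), so the KO library was lower at the early stage (ratio 0.719, 0.507 to 1.01) and higher at the intermediate (2.71, 1.09 to 8.66) and the late stage (2.07, 0.744 to 8.00). Only the intermediate interval left out 1. The log2 difference of 0.35 (SE 0.41, adjusted p = 0.999, edgeR) was not called.

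Odc1 was at 109, 35.3 and 68.4 CPM in WT (61, 3 and 7 UMIs) and at 64.2, 51.2 and 52.5 CPM in KO (25, 18 and 24 UMIs). The groups overlapped, and the log2 difference of -0.35 (SE 0.43, adjusted p = 0.999, edgeR) was not called. Arg2 did not pass the filter on low counts. It had 8, 0 and 2 UMIs in WT and 7, 10 and 4 in KO, at 0 to 28.4 CPM, and no difference was detectable at this depth. In all, 5 of the 6 genes were tested between the genotypes in TAM II and none was called, and in TAM I none had enough counts to be tested.

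**Figure D3:**
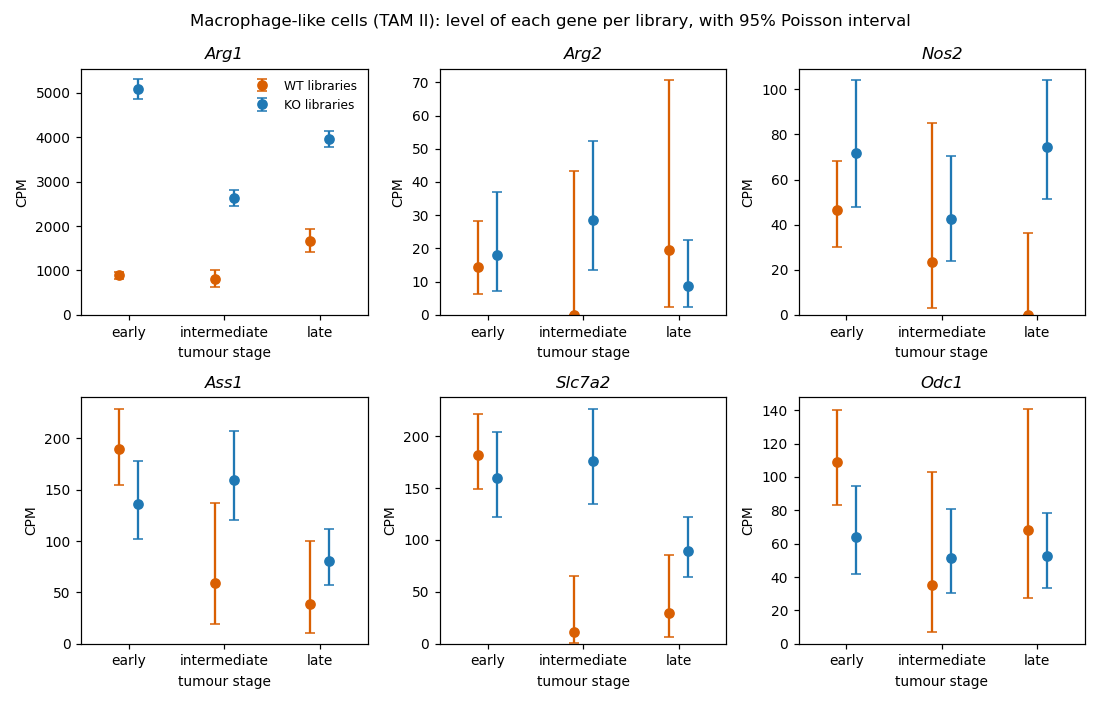
Level of each gene in TAM II (y axis, CPM, from 0) by tumour stage (x axis) for the WT (orange) and KO libraries (blue), 1 library per point, with exact 95% Poisson intervals for counting error. Arg1 is higher in the KO library at all 3 stages, at 2630.3 to 5085 against 800.5 to 1662 CPM. Slc7a2 and Ass1 are near each other at the early stage, and at the intermediate and late stage the WT values are lower.

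Between late and early tumours, TAM II showed no called gene (0% of 6112 genes, edgeR with the genotype as a covariate, 304 genes at an unadjusted p under 0.05, and 0 called by DESeq2). Slc7a2 was lower at the late stage by a log2 difference of -1.69 (SE 0.62, unadjusted p = 0.0185, adjusted p = 0.942) and Ass1 by -1.49 (SE 0.50, unadjusted p = 0.0115, adjusted p = 0.916), in both genotypes. The ratio of late to early was 0.161 (0.0327 to 0.484) for Slc7a2 and 0.207 (0.0552 to 0.544) for Ass1 in WT, and 0.564 (0.370 to 0.850) and 0.595 (0.380 to 0.923) in KO. Both were called when the library KO early was left out (-3.69 with adjusted p = 1.18e-04 and -2.68 with adjusted p = 0.00381, edgeR), where 1.33% of 7120 genes were called. The early stage is then the library WT early alone, which is assumed to vary like the libraries of the other stages, with 1 residual degree of freedom. In CPM, Arg1 had opposite directions in the genotypes, with a ratio of 1.87 (1.56 to 2.23) in WT and 0.780 (0.731 to 0.831) in KO, and a log2 difference of 0.14 (SE 0.35, adjusted p = 0.993) over both. The share of Arg1-positive cells moved the other way, from 46 of 102 to 7 of 21 cells in WT and from 44 of 72 to 71 of 108 in KO. The 170 Arg1 UMIs of the library WT late lay in these 7 cells, with up to 45 in 1 cell. Nos2 (-0.68, SE 0.66) and Odc1 (-0.62, SE 0.48) had adjusted p of 0.993.

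TAM II cells range from monocyte-like cells, recently arrived from blood, to macrophages rich in complement C1q. Cells were split by whether C1qa, C1qb and C1qc or Ly6c2, Plac8 and Ccr2 summed to more UMIs, a range rather than a type, with 318 cells on the C1q side, 78 on the monocyte side, 1 tied and 9 within 2 UMIs of the boundary. Arg1 was higher on the C1q side in 5 of 6 libraries. It was at 5820.2 against 3186 CPM in the library KO early, 2735 against 1857 in KO intermediate, 4316 against 2471 in KO late, 925 against 415 in WT early and 888 against 397 in WT intermediate. The exception was the library WT late, at 1427 against 3326 CPM, with 5 cells on the monocyte side. Ass1 was the reverse, higher on the monocyte side in 6 of 6 libraries, although each difference rests on few UMIs. For example it was at 107 against 212 CPM in the library KO early (30 and 23 UMIs) and at 139 against 329.5 CPM in KO intermediate (44 and 11 UMIs). Nos2 was higher on the monocyte side in all 3 KO libraries, at 57.0 against 110.5 CPM in KO early (16 and 12 UMIs), 28.5 against 179.7 in KO intermediate (9 and 6 UMIs) and 59.5 against 138 in KO late (22 and 12 UMIs), the opposite order to Arg1 there. The counting intervals overlapped in KO early and KO late. In KO late, 1 cell held 12 of the 34 Nos2 UMIs, and its side was not examined. Nos2 was higher on the C1q side in WT early and WT intermediate, where the monocyte side held none. Arg2, with few UMIs, was higher on the monocyte side in 4 of 6 libraries, and Slc7a2 and Odc1 were higher on the C1q side in 3 of 6 each. The share of cells on the C1q side was 75% to 87.3% in WT and 68.1% to 87.2% in KO, so the genotypes overlapped.

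In single TAM II cells, Nos2 and Slc7a2 tended to be found together with Arg1. Of 43 Nos2-positive cells, 79.1% held Arg1, against 48.6% of 354 Nos2-negative cells. The positive cells were deeper (median 5508 against 3267.5 UMIs), but after thinning to 1500 UMIs the expected shares were still 73.2% and 42.2%. Arg1 and Nos2, often used to mark opposite macrophage states, were thus found together in 34 cells. In each of the 4 libraries with at least 5 Nos2-positive cells, the Arg1 level was higher in these cells, at 2173 against 714 CPM in WT early, 5793 against 4847 in KO early, 6959 against 2087 in KO intermediate and 7875 against 3191 in KO late. Slc7a2-positive cells held Arg1 in 65.0% of 117 cases against 46.4% of 280 (58.3% and 40.2% after thinning), and their Arg1 level was higher in 4 of 4 libraries, for example 9022 against 2153 CPM in KO late. Ass1-positive cells had the lower Arg1 level in 4 of 4 libraries (such as 3979 against 5988 CPM in KO early) and Odc1-positive cells in 5 of 5 (such as 513 against 1139 CPM in WT early). Cells of 1 library are not replicates, so these are descriptions with no test.

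The question where in a tumour these transcripts lie was addressed by comparing tumour cells with all other named cells of the same library. Arg1 (log2 difference -7.24, SE 0.68, adjusted p = 5.46e-06), Slc7a2 (-6.67, SE 0.44, adjusted p = 5.66e-07) and Ass1 (-5.11, SE 0.33, adjusted p = 5.17e-07) were lower in tumour cells (edgeR with the library as a block). Odc1 did not pass (-0.31, SE 0.20, adjusted p = 0.196). Most genes differed in this comparison, with 63.3% of 13013 called and 32.2% called lower, and Arg1, Slc7a2 and Ass1 passed the filter on low counts through the other cells, where they are high. That 3 of 4 tested members were called lower therefore followed in part from the filter and is no result about the members. Ass1 had 49 UMIs in 3394 tumour cells (1.83 ± 1.55 CPM, n = 6), and Slc7a2 had 13 (0.468 ± 0.536 CPM).

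Odc1 in tumour cells was at 111, 36.2 and 40.0 CPM in the libraries WT early, WT intermediate and WT late and at 60.3, 40.3 and 39.2 CPM in KO. The library WT early stood apart from the other 5 (exact Poisson 95% interval 99.8 to 124), and its TAM II also had the highest Odc1 of the 6 libraries. Between the hosts Odc1 did not differ beyond the spread (-0.21, SE 0.23, adjusted p = 0.983, edgeR).

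Of the 6 genes, Arg1 and Odc1 had enough counts to be tested between tumour cells of KO and WT hosts. Arg1 was called between tumour cells of KO and WT hosts, with a log2 difference of 4.36 (SE 0.39, adjusted p = 0.0402, edgeR with the stage as a block), against a background of 0.0146% (2 of 13730 genes). The counts behind it were 3, 0 and 25 UMIs in WT and 41, 4 and 403 in KO at the early, intermediate and late stage. They were concentrated in few cells. In the library KO late, 12 cells with 10 or more Arg1 UMIs held 93.5% of the Arg1 UMIs of 528 tumour cells. These 12 cells also held 22 to 719 UMIs of the 8 macrophage markers (median 60.5, against a median of 0 in the tumour cells of that library without Arg1) and had a median depth of 14082 UMIs against 4078. In all, 104 tumour-class cells held 10 or more macrophage marker UMIs. Without them, the Arg1 counts of the tumour cells were 2, 0 and 4 UMIs in WT and 39, 4 and 17 in KO (at most 11.9 CPM), and Arg1 was too low to be tested. Without the library WT late, the log2 difference was 3.72 (adjusted p = 0.256, edgeR), without the library KO late 3.77 (0.565) and with doublets removed 3.68 (0.200), so the difference remained large and the call was lost.

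Arg1 UMIs also lay in barcodes with little RNA. In the last 1000 of the 3000 barcodes of each table, ranked by UMIs, which had a median of 252 to 521 UMIs, Arg1 was at 32.8, 6.88 and 11.9 CPM in the libraries WT early, WT intermediate and WT late and at 219, 51.0 and 193 CPM in KO. In the naïve libraries it was at 0, with upper limits of 11.1 and 10.4 CPM. These barcodes thus carried more Arg1 in CPM than the tumour cells in each tumour-bearing library. The 3 KO values were above the 3 WT values. The share of all genes ordered so in these barcodes was not determined, so this is no further result on the genotype. The ratio of Lyz2, a macrophage marker, to Arg1 UMIs was 5.24 in tumour cells and 2.65 in TAM II of the library KO early and 3.80 and 3.08 in KO late, whereas it was 53.3 and 27.3 in WT early, 23.0 and 9.67 in WT late and 29.5 and 6.77 in KO intermediate. Whether the Arg1 UMIs of tumour cells came from macrophage RNA in the same droplet was not tested beyond these values.

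**Figure D4:**
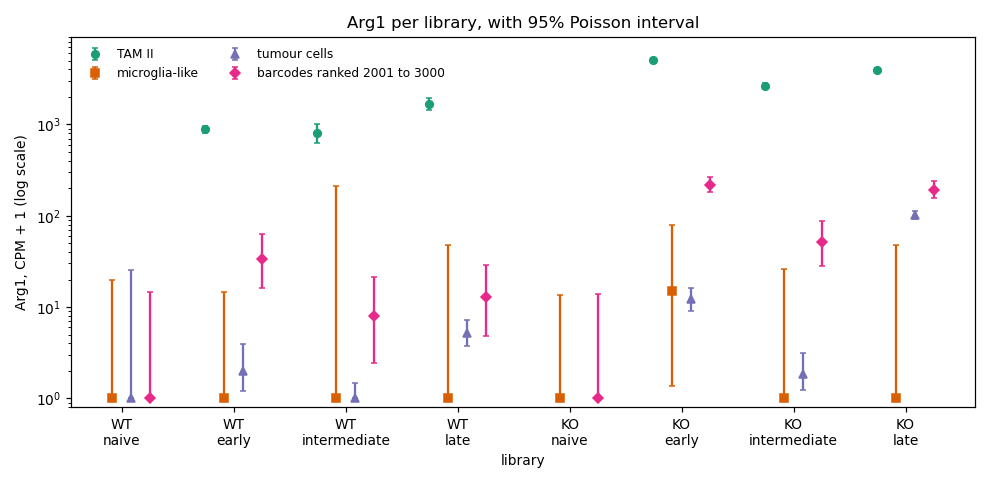
Arg1 level (y axis, CPM plus 1, log scale) in each of the 8 libraries (x axis) for TAM II, microglia-like cells, tumour cells and the 1000 barcodes with the fewest UMIs of the 3000 in each table, with exact 95% Poisson intervals for counting error and classes of fewer than 5 cells left out. TAM II lies above all others in every tumour-bearing library, and tumour cells and low-ranked barcodes are highest in the libraries KO early and KO late.

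Nos2 outside the myeloid cells was found in brain endothelium. Endothelial cells of the naïve libraries held 7 UMIs each (22.5 CPM, exact Poisson 95% interval 9.05 to 46.4, in WT and 21.0 CPM, 8.43 to 43.2, in KO), spread over 11 of 185 cells with at most 2 per cell. In the tumour-bearing libraries they held 4 in 110 cells (6.90 CPM, 1.88 to 17.7), at 0 to 18.9 CPM per library. These ranges did not overlap, as for 11.3% of genes with every tumour-bearing sum below every naïve one, but the counting intervals did. Oligodendrocytes and astrocytes, with 368 and 287 cells, held none. In the naïve brains, no other class held a Nos2 UMI.

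The wider pathway was followed with 42 further genes of arginine transport, nitric oxide synthesis, the urea cycle, ornithine and proline, polyamine and creatine metabolism. Between TAM II and TAM I, 7 were tested, of which 1 was higher and 1 lower, near the background of 30.9% of all genes called and so no result about the pathway, with a median log2 difference of 0.23 against 0.03 over all genes tested. Eif5a, the translation factor modified with a polyamine-derived residue, was higher (0.85, SE 0.20, adjusted p = 0.00429), and Sat1, which acetylates polyamines for their export and breakdown, was lower (-1.21, SE 0.16, adjusted p = 2.22e-05, both edgeR). Between TAM I and naïve microglia, 9 were tested and 0 called.

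Between tumour cells and other cells, 34 were tested, of which 16 were higher and 12 lower in tumour cells, where 31.1% of all genes were called higher and 32.2% lower. By role, 5 of 6 genes of ornithine and proline metabolism were higher and 1 lower, 6 of 12 tested polyamine genes were higher and 3 lower, and 6 of 8 genes of nitric oxide synthesis, its cofactor and the removal of its inhibitors were lower and 2 higher. The largest differences were those of Paox, which oxidises acetylated polyamines (-4.24, SE 0.36), Gch1, which starts the synthesis of the cofactor tetrahydrobiopterin (-3.78, SE 0.35), and Nos1, the neuronal nitric oxide synthase (2.82, SE 0.27), all with adjusted p of at most 7.07e-06 (edgeR). In the genotype comparisons, 16 were tested in TAM II, 5 in TAM I and 34 in tumour cells, and between late and early TAM II 18 were tested. None was called in any of these 4 comparisons by edgeR, where the lowest adjusted p was 0.402 and 1, 0, 2 and 0 genes had an unadjusted p under 0.05.

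The genes whose pattern was most like that of each member were sought over 40 sums of class and library with at least 20 cells, among 9352 genes, by the correlation of log2(CPM + 10). These sums share libraries and cell classes, so the values are descriptions. Arg1 was most like Clec4n (Pearson r = 0.938), Ccr1 (0.930) and Il1rn (0.901), and Nos2 was most like Mmp12 (0.779), Dram1 (0.779) and Cxcl1 (0.774). Ass1 followed Plbd1 (0.743), Glrx (0.711) and Cfp (0.706), and Slc7a2 followed Pla2g7 (0.852), Sdc4 (0.793) and Slc7a11 (0.750). Odc1 was most like Iqgap2 (0.844), Anxa6 (0.761) and Emb (0.752). Arg2 had too few UMIs for this comparison.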

How the data were processed

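The authors sequenced 8 Drop-seq libraries (NextSeq 500), processed the reads with bcl2fastq 2.0, FastQC, Picard, the Drop-seq pipeline and STAR against GRCm38, and deposited UMI counts per gene and barcode, 3000 barcodes per library. Counts carry no normalization. Here, the 1000 largest barcodes per library, genes in at least 30 cells and cells with at least 1000 genes were kept. Cells were clustered on 50 principal components (t-SNE with perplexity 50, HDBSCAN) without the 6 genes and 42 pathway genes, and named from marker lists. UMI counts were summed per library and class (at least 5 cells). Sums were tested with edgeR 4.0.16 (quasi-likelihood, TMM, filterByExpr, Benjamini-Hochberg over all genes tested, threshold 0.05), with DESeq2 1.42.0 as an alternative, after a check on simulated counts. For genotype in TAM II, that check called 4 of 45 log2 differences set to -1 and 6 of 43 set to 1. It called 31 of 56 set to -2 and 46 of 56 set to 2. For late against early, 3 of 48 set to -1 and 2 of 47 set to 1 were called. A gene that was not called in these comparisons can therefore still differ. Libraries of different stages served as replicates, so p-values rest on 1 library per genotype and stage. Poisson (levels) and Clopper-Pearson (shares) 95% intervals are exact and reflect counting error alone, and a count of 0 was given a limit of 3 counts. Doublets were left in, and their removal (Scrublet) was an alternative. Scrublet marked 1 or 2 cells in each tumour-bearing library except WT early. Where it marked under 0.5% of the cells of a library, the 5% with the highest doublet score were removed instead. Leaving out both libraries of a stage, or cells by tumour collagens, depth or macrophage markers, was chosen after seeing the data.

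The members and lists were chosen with earlier results of these data known. Named were the 6 genes, at most 3 called pathway genes per comparison with the largest change, and the 3 genes most like each member with at least 100 UMIs.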

Additional observations from a re-analysis of the deposited data

Results flagged for a closer look

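Of 10 groups of libraries examined for a value far from the others, 2 held one, and chance gives about 1 in 20. Arg1 in tumour cells of the library KO late (101 CPM) lay apart from the other 5 tumour-bearing libraries, with a gap to the nearest of 0.889 of the range. Odc1 in tumour cells of the library WT early (111 CPM) lay apart likewise, with a gap of 0.679 of the range.

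Arg1 in TAM II, in CPM, was higher at the late than at the early stage in WT (ratio 1.87) and lower in KO (ratio 0.780). The share of Arg1-positive cells moved the other way in both genotypes, and the library WT late held 7 such cells. The difference between the genotypes was not tested.

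The last 1000 of the 3000 barcodes of each table, ranked by UMIs, which entered no comparison, held Arg1 above the naïve libraries in WT early (32.8 CPM), KO early (219 CPM), KO intermediate (51.0 CPM) and KO late (193 CPM).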

How the results depend on the processing

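No analysis paired by replicate number was made, since the labels give none. The library or the stage was the block instead, and its removal is among the alternatives. Of 335 alternative values of the 17 tests of single members, 301 kept direction and side of the threshold, 15 passed it newly, 6 no longer passed and 13 reversed. Members called, of 6, were as follows. TAM II against TAM I had 1, with 6 without the filter, 3 with at least 10 cells per sum and 1 to 3 when 1 library was left out. TAM I against naïve microglia had 0, with 1 without the filter. Tumour against other cells had 3, with 5 without the filter and 3 to 4 when 1 library was left out. KO against WT in TAM II had 0, with 1 by DESeq2, RLE scaling, no filter, Leiden clustering, or without unassigned or tumour-collagen cells, 2 without both early libraries and 0 to 2 when 1 library was left out. KO against WT in tumour cells had 1, with 0 without the stage block, both late libraries, doublets, unassigned or macrophage-marker-rich cells or with Leiden clustering, and 0 to 1 when 1 library was left out. Late against early had 0, and 0 to 2 when 1 library was left out. Direction reversed for Ass1 between genotypes in TAM II (-0.05 without both intermediate libraries, -0.04 to 1.35 when 1 was left out), for Odc1 there (0.06 without both early libraries, -0.63 to 0.08) and in tumour cells (0.10, and -0.43 to 0.10), and for Arg1 between late and early (-0.14 with these stages alone, -0.43 without tumour-collagen cells, -0.31 to 0.54), none of which was called. Odc1 was called lower in tumour cells (-0.53, adjusted p = 0.0302, edgeR) without macrophage-marker-rich cells. Over all genes, calls were 700 against 1326 without the filter for TAM II against TAM I, 523 against 101 and 66 without the library WT naïve or KO naïve for TAM I against naïve microglia, 0 against 60 without the filter and 93 without both early libraries for genotype in TAM II, 0 against 10 without both early libraries in TAM I, 2 against 488 without the filter, 67 by DESeq2, 143 without both intermediate and 37 without both early libraries in tumour cells, and 0 against 44 without the filter and 95 without the library KO early for late against early. Of 78 alternative levels, 3 shares moved on thinning (Arg2 2.47%, Ass1 14.6% and Odc1 9.02%). Causes were not tested.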
